A study of Homo sapiens with 6 samples.

Results

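The 35 genes described here encode proteins of the G2 phase and of mitosis, and their transcripts were examined in macrophages made from the human monocytic leukemia line THP1. The genes were taken by symbol from a fixed list, and all 35 were found among the 17513 deposited genes in both the count and the FPKM values. By the series' text these macrophages spent 48 h in medium taken from KYSE150 cells, which derive from an esophageal squamous carcinoma. The tumor cells bore the hairpin shSPP1#2, directed at SPP1 (osteopontin, a secreted glycoprotein), or the control hairpin shNC. Each group had 3 libraries of polyadenylated RNA, and a single SPP1 hairpin was used. The sample labels name KYSE150 cells rather than macrophages, so cell identity was checked by markers before any comparison.

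Dividing cells make most of these transcripts in G2 and mitosis and destroy many of the proteins as mitosis ends. Cyclin A and the B cyclins activate CDK1, the Aurora and Polo kinases build the spindle, the checkpoint kinases hold anaphase until every kinetochore is attached, and the anaphase-promoting complex then degrades securin and the cyclins. THP1 cells divide as monocytes and largely leave the cycle when differentiated into macrophages. In resting cells the DREAM complex, built on LIN54 and the pocket proteins, represses such genes through a short promoter element called the cell cycle genes homology region (CHR), often beside CCAAT boxes bound by NF-Y.

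Promoter sequence was therefore examined as a feature the choice of genes did not use. RefSeq promoters on GRCh38.p14, running from 250 bases before to 50 after the transcription start, were at hand for 29 of the 35 genes. A CHR, searched as TTTGAA or TTCGAA on either strand, occurred in 21 of these 29 promoters (72.4%), against 16.6% of all 27305 promoters and 11.5% of the promoters of the genes tested. A CCAAT box on either strand occurred in 23 (79.3%), against 35.7% of all promoters. Both occurred together in 18 (62.1%), against 6.58% of all promoters. E2F-like letters (TTTGGCGC, TTTCGCGC, TTTCCCGC or TTTGCCGC, either strand) occurred in 3 (10.3%). They occurred in 3.33% of all promoters and in 5.25% of those of the genes tested. In 16 of the 29 promoters a CHR match began between 60 bases before and 50 after the start. The 250 bases before the start are shown for the 4 genes of smallest p-value between the groups whose CHR lies in that stretch, with CHR and CCAAT matches on either strand in capitals, to show how the pair is placed in genes of different roles.
ESPL1: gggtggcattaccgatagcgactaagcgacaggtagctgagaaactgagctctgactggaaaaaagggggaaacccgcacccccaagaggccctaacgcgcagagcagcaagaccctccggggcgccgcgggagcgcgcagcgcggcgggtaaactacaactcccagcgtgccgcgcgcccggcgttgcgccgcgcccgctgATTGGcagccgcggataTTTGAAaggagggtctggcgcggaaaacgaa
CDK1: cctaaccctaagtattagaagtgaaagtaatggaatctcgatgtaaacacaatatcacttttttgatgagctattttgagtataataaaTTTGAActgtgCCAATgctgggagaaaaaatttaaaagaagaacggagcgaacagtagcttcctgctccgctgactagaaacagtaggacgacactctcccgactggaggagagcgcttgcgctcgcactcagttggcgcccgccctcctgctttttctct
CENPA: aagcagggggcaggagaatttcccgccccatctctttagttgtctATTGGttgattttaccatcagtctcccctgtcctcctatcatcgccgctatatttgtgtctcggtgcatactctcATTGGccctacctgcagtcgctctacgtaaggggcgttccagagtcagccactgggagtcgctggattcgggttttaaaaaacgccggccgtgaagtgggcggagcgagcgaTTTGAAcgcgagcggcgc
PRC1: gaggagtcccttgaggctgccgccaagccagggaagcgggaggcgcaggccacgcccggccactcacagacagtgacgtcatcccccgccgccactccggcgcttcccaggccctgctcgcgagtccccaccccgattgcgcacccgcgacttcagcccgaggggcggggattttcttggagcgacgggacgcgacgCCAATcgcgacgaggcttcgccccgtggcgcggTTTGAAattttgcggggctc
The ESPL1 stretch is chr12:53268049-53268298 on the plus strand, with the CHR starting at position -31 and the CCAAT match at -48, where -1 is the last base before the start. The PRC1 stretch, chr15:90994536-90994785 on the minus strand, holds the same pair at -20 and -53. The CENPA stretch is chr2:26785806-26786055 on the plus strand, with a CHR at -18 and CCAAT matches at -130 and -205. In CDK1, chr10:60778081-60778330 on the plus strand, the only CHR match lies farther out, at -161, next to a CCAAT match at -150. Each gene was searched around a single start, so an element outside that window, or near another start, would be missed. Such matches describe letters in a window and do not show that a factor was bound in these cells. In NUSAP1, the gene of smallest p-value, the CHR match lies 14 bases after the start and is not printed.

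**Figure D1:**
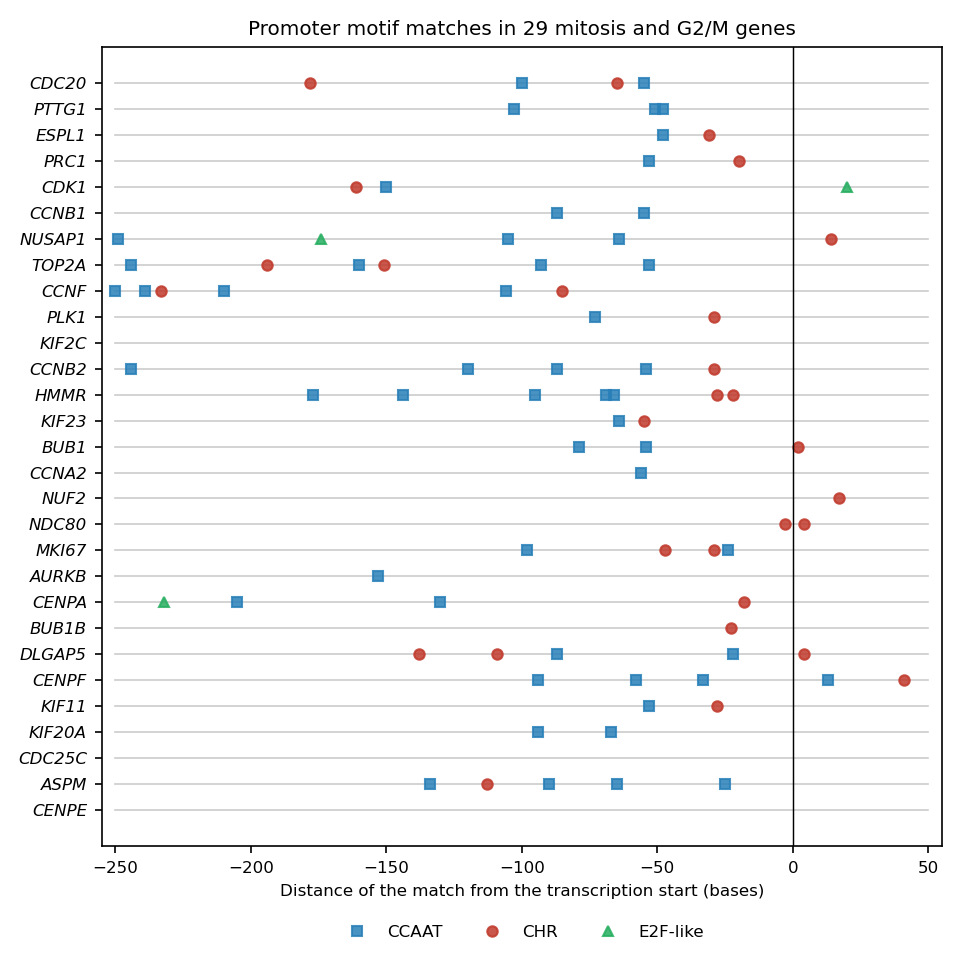
Positions of CHR (circles), CCAAT (squares) and E2F-like (triangles) matches in the promoters of 29 mitosis and G2/M genes, as the distance in bases from the transcription start, with genes ordered by mean FPKM. CHR matches began between 60 bases before and 50 after the start in 16 promoters.

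Most macrophage markers were abundant and most squamous epithelial markers were low. Of 20 macrophage markers, 17 reached 1 FPKM in each library, with a list median of 96.9 to 102 FPKM and a summed level of 3096 to 3393 FPKM. C1QA, C1QB and C1QC lay at 0 to 0.45 FPKM. Of 23 squamous epithelial markers, 5 reached 1 FPKM in each library, with a median of 0.040 to 0.13 FPKM. KRT5 and KRT14 were at 0 to 0.040 FPKM, but KRT16 was at 0.55 to 0.93 FPKM and KRT4 at 0.63 to 0.98 FPKM. The most abundant genes of that list, CSTA and PERP, were at 39.3 to 52.5 and 23.5 to 25.7 FPKM. LAMB3 was at 14.5 to 16.6 FPKM and ITGA6 at 10.9 to 12.1 FPKM. Of 7 fibroblast markers, 3 reached 1 FPKM in each library: COL1A1 (16.3 to 19.1), PDGFRA (7.58 to 9.03) and PDGFRB (3.24 to 4.18 FPKM). Of 8 T and NK cell markers, 4 were among the deposited genes. These were NKG7 (3.69 to 6.02), PRF1 (3.79 to 5.26), KLRD1 (0.79 to 1.29) and CD3G (0.18 to 0.38 FPKM). Each library totaled between 18113591 and 20626346 estimated counts. One library, shNC replicate 2, had the smallest total and stood apart on the first principal component (22.5 against -10.5 to 1.63), while shSPP1#2 replicate 2 stood apart on the second (-20.3 against -0.64 to 13.8). SPP1 itself, at 2061, 2014 and 1932 FPKM in shSPP1#2 medium and 2075, 2011 and 1890.4 FPKM in shNC medium, is the receiving cells' own transcript and does not check the knockdown.

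All 35 genes were detected in all 6 libraries, at low levels. FPKM values, which are scaled by gene length, allow levels to be compared between genes. The median of the 35 genes was 1.23 to 1.42 FPKM per library, against 3.32 to 3.47 FPKM over all deposited genes. By mean level the median member stood at the 38.9th percentile of deposited genes. Of the 35 genes, 19 reached 1 FPKM in all 6 libraries at once, as did 61.0% of all deposited genes. Another 10 stayed below 1 FPKM throughout and 6 crossed it, so that 20 to 24 reached it in a given library. Only AURKA, CDC20 and PTTG1 exceeded 5 FPKM in each library. No library of dividing THP1 cells was analysed here, so the levels cannot be turned into a share of dividing cells, and fewer dividing cells cannot be told apart from less RNA per cell.

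Levels spanned from 0.20 FPKM, the lowest value of CENPE, to 15.8 FPKM, the highest of AURKA. For 30 of the 34 neighboring pairs in the order by mean level the ranges over the 6 libraries overlapped. Neighbors were read in the same libraries, so an overlap of ranges does not show equal levels. ESPL1, for example, lay above UBE2C in each of the 6 libraries although their ranges overlapped. The ranges lay apart between AURKA (13.9 to 15.8 FPKM) and CDC20 (9.0 to 10.04 FPKM), and between PTTG1 (8.06 to 10.55 FPKM) and ESPL1 (4.11 to 5.04 FPKM). They also lay apart between PRC1 (3.13 to 3.96 FPKM) and CDK1 (2.32 to 2.97 FPKM), and between KIF2C (1.92 to 2.17 FPKM) and CCNB2 (1.58 to 1.91 FPKM). By mean level, genes of anaphase entry and exit made up 4 of the 5 most abundant members, while the kinetochore genes lay in the lower part of the order. The range of the lowest of those 5, UBE2C (3.53 to 4.66 FPKM), overlapped that of PRC1, the next in the order. Within each of the 6 libraries UBE2C was nonetheless the higher of the pair.

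**Figure D2:**
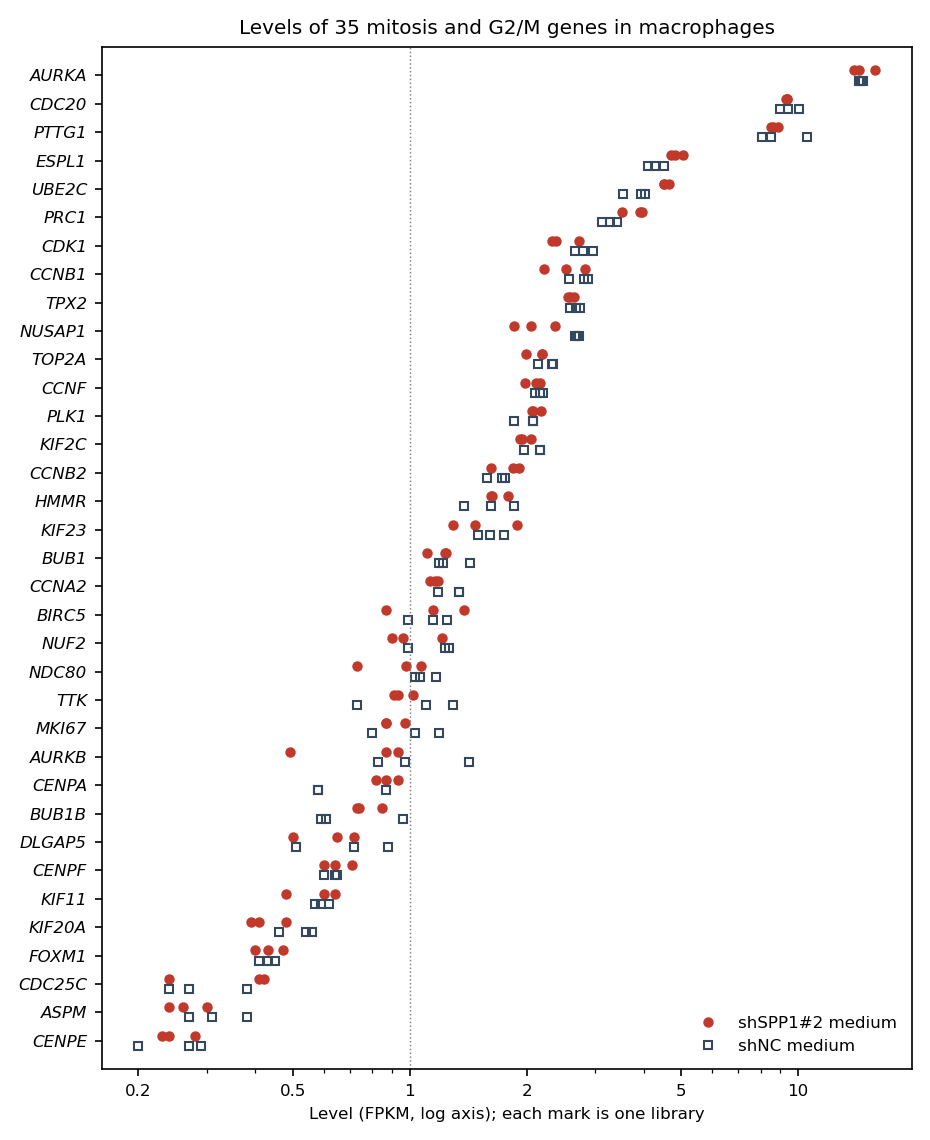
FPKM of the 35 mitosis and G2/M genes on a log axis, ordered by mean level, with 1 mark per library (filled circles, shSPP1#2 medium; open squares, shNC medium) and a dotted line at 1 FPKM. The marks of both groups intermingle for most genes, and AURKA lies highest at 13.9 to 15.8 FPKM.

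Several other parts of the cell cycle machinery were more abundant, while the other mitotic genes were also low. Other kinetochore and checkpoint genes (34 genes) had a median of 2.2 to 2.5 FPKM per library. Other spindle and cytokinesis genes (24 genes) had one of 1.9 to 2.3 FPKM, and other mitotic regulators (19 genes) one of 1.9 to 2.5 FPKM. These medians too lay below that of all deposited genes, 3.32 to 3.47 FPKM. The subunits of the anaphase-promoting complex (15 genes) had a median of 18.6 to 20.7 FPKM. Genes of the DREAM and MMB complexes and NF-Y (15 genes) had a median of 11.3 to 12.9 FPKM, condensin and cohesin genes (17 genes) one of 8.01 to 8.48 FPKM, and DNA replication genes (15 genes) one of 3.41 to 4.47 FPKM. Cell cycle brakes (12 genes) had a median of 18.9 to 22.6 FPKM. Among these CDKN1A, the CDK inhibitor p21, reached 643 to 700.3 FPKM, and was singled out after its values were seen.

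The comparison of shSPP1#2 medium with shNC medium asks whether tumor SPP1 altered the mitotic transcripts of the receiving macrophages. None of the 35 genes passed an adjusted p of 0.05 between the groups (edgeR quasi-likelihood test with Benjamini-Hochberg adjustment over 13555 genes, 0% of which were called). At an unadjusted p below 0.05 the test gave 2 of the 35, ESPL1 higher and NUSAP1 lower in shSPP1#2 medium, where 6.85% of all genes tested reached it, 3.45% higher and 3.39% lower. DESeq2 gave no adjusted p for any of the 35, since its independent filter set them aside, and called 13 of 4265 genes (0.305%). Without that filter it called 0 of the 35, as did limma-voom and limma on log2(FPKM + 1) or log2(FPKM + 0.1). The labels do not say whether the replicates were cultured apart, so the p-values speak for the spread among these 6 samples alone, and that spread may be technical.

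More members lay below 0 than above, by small amounts. In the edgeR fit 23 of the 35 log2 fold changes were below 0, where 50.1% of all genes tested were, and 12 were above 0. Their median was -0.058, against -0.00030 over all genes tested, and without shNC replicate 2 it was -0.010, with 18 of 35 below 0. Summed over the 35 genes, the level was 82.9, 80.8 and 82.8 FPKM in shSPP1#2 replicates 1, 2 and 3, and 80.7, 85.9 and 82.5 FPKM in the shNC replicates. The means were 82.2 ± 1.13 FPKM in shSPP1#2 medium and 83.0 ± 2.67 FPKM in shNC medium (SD, n = 3 each). These sums overlapped, and that of shNC replicate 2 was the highest of the 6.

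The depth sets what could be seen. Members had 12.3 (CDC25C) to 632 (AURKA) estimated counts per library on average, and the standard error of a log2 fold change ran from 0.062 to 0.37, with a median of 0.14. Of the 35 genes, 23 had a 95% interval inside -0.5 to 0.5, and 33 had one inside -1 to 1. Only AURKB and CDC25C had intervals that reached beyond 1. Replicates of these genes differed by about as much as counting alone would give, with a median chi-square per degree of freedom of 0.756, against 1.71 over all genes tested. These medians were not matched for abundance, so they do not show that the 35 genes were more reproducible than others. MKI67 had the largest value among the 35, 4.80. Exons of other genes on the opposite strand cover 11.8% of the exonic bases of CCNF, 15.9% of FOXM1 and 12.5% of PLK1 in GENCODE v29, and those of a read-through gene on the same strand cover 10.2% of BUB1B. As strand use is not stated, reads of such pairs cannot be told apart. MKI67, CDC20, CCNB2, BUB1 and DLGAP5 have 1 named pseudogene each, which makes their counts uncertain too.

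**Figure D3:**
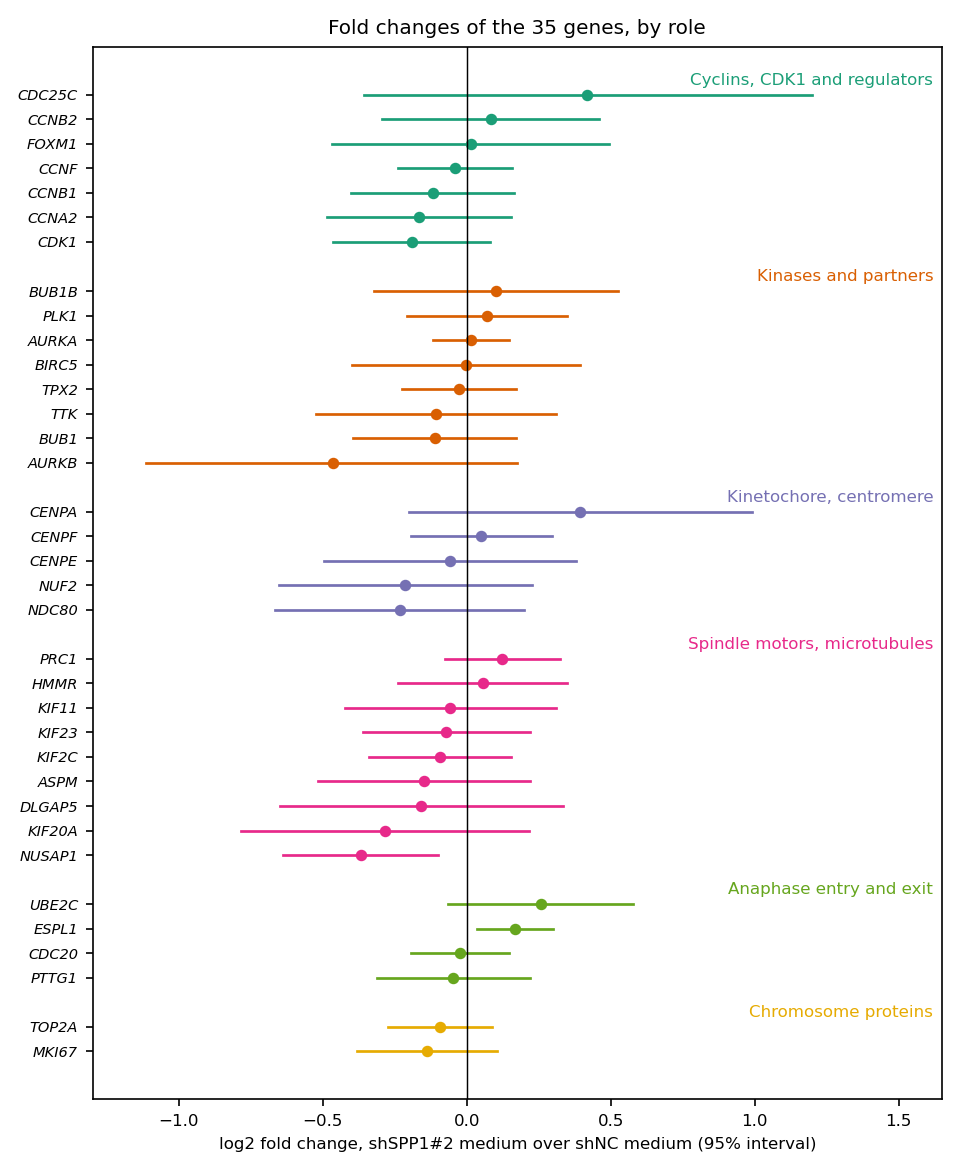
log2 fold changes of the 35 genes, shSPP1#2 medium over shNC medium, with 95% intervals from the edgeR fit and colors by role. The intervals of NUSAP1 and ESPL1 leave out 0, and no gene passed the adjusted threshold.

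MKI67 and TOP2A, which coat and untangle mitotic chromosomes and are the usual marks of proliferating cells, showed no call. MKI67, the Ki-67 antigen, measured 0.87, 0.87 and 0.97 FPKM in shSPP1#2 replicates 1, 2 and 3, and 0.80, 1.03 and 1.19 FPKM in the shNC replicates. The shNC libraries held both its lowest and its highest value. Its log2 fold change was -0.14 (95% interval -0.38 to 0.10, edgeR adjusted p = 0.886), and 0.0045 without shNC replicate 3. The DNA topoisomerase TOP2A measured 2.19, 1.99 and 2.19 FPKM in shSPP1#2 medium, and 2.14, 2.34 and 2.33 FPKM in shNC medium. The groups overlapped, with a log2 fold change of -0.094 (-0.27 to 0.086, edgeR adjusted p = 0.894).

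The cyclins, CDK1 and their regulators likewise showed no call, with 3 of 7 log2 fold changes above 0 and a range of -0.19 to 0.42. CDK1, the kinase that drives entry into mitosis, measured 2.72, 2.32 and 2.38 FPKM in shSPP1#2 medium, and 2.66, 2.97 and 2.79 FPKM in shNC medium. Only shSPP1#2 replicate 1 reached into the shNC range, and the log2 fold change was -0.19 (-0.47 to 0.081, edgeR adjusted p = 0.845). CCNB1, its cyclin B1 partner, measured 2.83, 2.52 and 2.22 FPKM in shSPP1#2 medium, and 2.81, 2.87 and 2.57 FPKM in shNC medium. Its groups overlapped (log2 fold change -0.12, -0.40 to 0.17, edgeR adjusted p = 0.916), and its mean level over the 6 libraries, 2.64 FPKM, equaled that of CDK1 to this precision. CCNA2, cyclin A2, was the one gene of this role whose groups did not overlap in TMM-scaled CPM (counts scaled to library size), all shSPP1#2 libraries lying lower (log2 fold change -0.17, edgeR adjusted p = 0.894). In FPKM its groups met at 1.18. CCNB2 (cyclin B2) and CCNF (cyclin F, a ubiquitin ligase subunit) had log2 fold changes of 0.082 and -0.041. FOXM1, a transcription factor that activates G2/M genes, lay at 0.40 to 0.47 FPKM, and CDC25C, a phosphatase that activates CDK1, at 0.24 to 0.42 FPKM.

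Mitotic kinases and their partners showed no call either, with 3 of 8 log2 fold changes above 0. AURKA, the centrosomal Aurora kinase and the most abundant member, measured 13.9, 14.3 and 15.8 FPKM in shSPP1#2 medium, and 14.7, 14.5 and 14.3 FPKM in shNC medium. The shNC values lay inside the range of the others, and with a log2 fold change of 0.014 (-0.12 to 0.14, edgeR adjusted p = 0.984) this was the most narrowly bounded member. The genome holds 2 annotated AURKA pseudogenes, which makes its estimated counts uncertain. TPX2, which activates AURKA on spindle microtubules, measured 2.59, 2.56 and 2.64 FPKM in shSPP1#2 medium, and 2.75, 2.68 and 2.58 FPKM in shNC medium, with overlapping groups. AURKB, the kinase of the chromosomal passenger complex, measured 0.93, 0.87 and 0.49 FPKM in shSPP1#2 medium, and 1.42, 0.83 and 0.97 FPKM in shNC medium. It had the most negative estimate of the 35, a log2 fold change of -0.47, but a wide interval (-1.11 to 0.18, edgeR adjusted p = 0.836) and overlapping groups. Without shSPP1#2 replicate 3 it was -0.22 and without shNC replicate 1 it was -0.25, and in both cases NUSAP1 was then the most negative, at -0.34 and -0.39. BIRC5 (survivin), a partner of AURKB in that complex, had one of -0.0032. PLK1, the Polo kinase, had a log2 fold change of 0.071, and the checkpoint kinases TTK, BUB1 and BUB1B had -0.11, -0.11 and 0.10.

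Kinetochore and centromere genes had the lowest levels of any role, with a median of 0.60 to 0.87 FPKM, and no call. NUF2 and NDC80 are partners in the complex that binds microtubules at the kinetochore. NUF2 measured 1.21, 0.96 and 0.90 FPKM in shSPP1#2 medium, and 1.23, 0.99 and 1.26 FPKM in shNC medium. NDC80 measured 1.07, 0.98 and 0.73 FPKM in shSPP1#2 medium, and 1.03, 1.06 and 1.17 FPKM in shNC medium. Both were lowest in shSPP1#2 replicate 3, the groups overlapped, and the log2 fold changes were -0.21 and -0.23 (edgeR adjusted p = 0.899 and 0.893). CENPA, the histone H3 variant of centromeres, measured 0.87, 0.82 and 0.93 FPKM in shSPP1#2 medium, and 0.58, 0.87 and 0.58 FPKM in shNC medium. Its groups overlapped through shNC replicate 2 (log2 fold change 0.39, -0.20 to 0.99, edgeR adjusted p = 0.864). CENPE, a kinetochore motor, and CENPF, a kinetochore protein that binds microtubules, had log2 fold changes of -0.058 and 0.050.

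Among spindle motors and microtubule-binding proteins NUSAP1 and PRC1 stood at opposite ends, with 7 of 9 log2 fold changes below 0. NUSAP1, which bundles spindle microtubules near chromosomes, measured 2.37, 1.85 and 2.05 FPKM in shSPP1#2 medium, and 2.67, 2.69 and 2.72 FPKM in shNC medium. All shSPP1#2 values lay below all shNC values, with means of 2.09 ± 0.262 FPKM and 2.69 ± 0.0252 FPKM (SD, n = 3 each). The log2 fold change was -0.37 (-0.64 to -0.10, edgeR unadjusted p = 0.00969, adjusted p = 0.588), the smallest p among the 35. PRC1, which bundles the central spindle, measured 3.52, 3.91 and 3.96 FPKM in shSPP1#2 medium, and 3.13, 3.27 and 3.41 FPKM in shNC medium. Its groups lay apart in FPKM but overlapped in TMM-scaled counts, where the log2 fold change was 0.12 (-0.077 to 0.32, edgeR adjusted p = 0.872). In GENCODE v29 exons of other same-strand genes cover 62.2% of the exonic bases of NUSAP1 and 57.6% of those of PRC1. The annotation used for counting is not given, so whether reads were divided with those genes is unknown, and both estimates are uncertain. The motors KIF11 (bipolar spindle), KIF20A and KIF23 (cytokinesis) and KIF2C (microtubule depolymerization) had log2 fold changes of -0.058, -0.28, -0.071 and -0.095. Those of ASPM (spindle poles), DLGAP5 (kinetochore fibers) and HMMR (spindle assembly) were -0.15, -0.16 and 0.055.

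Genes of anaphase entry and mitotic exit held the only 2 members whose shSPP1#2 libraries all lay above the shNC libraries in TMM-scaled counts, ESPL1 and UBE2C. ESPL1 encodes separase, the protease that cuts cohesin to part sister chromatids. It measured 4.83, 4.71 and 5.04 FPKM in shSPP1#2 medium, and 4.29, 4.11 and 4.52 FPKM in shNC medium. The means were 4.86 ± 0.167 FPKM and 4.31 ± 0.206 FPKM (SD, n = 3 each), and the log2 fold change was 0.17 (0.035 to 0.30, edgeR unadjusted p = 0.0157, adjusted p = 0.63). UBE2C, the ubiquitin-conjugating enzyme of the anaphase-promoting complex, measured 4.51, 4.66 and 4.52 FPKM in shSPP1#2 medium, and 3.53, 4.03 and 3.95 FPKM in shNC medium. Its log2 fold change was 0.26 (-0.064 to 0.58, edgeR adjusted p = 0.801), and 4 annotated pseudogenes make its counts uncertain.

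CDC20 and PTTG1, of the same role, overlapped between the groups. CDC20, the activator of the anaphase-promoting complex, measured 9.38, 9.34 and 9.33 FPKM in shSPP1#2 medium, and 9.0, 10.04 and 9.42 FPKM in shNC medium. PTTG1 is securin, the inhibitor of separase that the complex degrades at anaphase. It measured 8.86, 8.59 and 8.49 FPKM in shSPP1#2 medium, and 8.06, 10.55 and 8.53 FPKM in shNC medium. For both the highest value was that of shNC replicate 2, and the log2 fold changes were -0.025 and -0.048 (edgeR adjusted p = 0.978 and 0.973). Its near-identical copy PTTG2 was at 0 to 0.15 FPKM. Separase and its inhibitor thus had log2 fold changes of 0.17 and -0.048, a difference that was not tested.

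**Figure D4:**
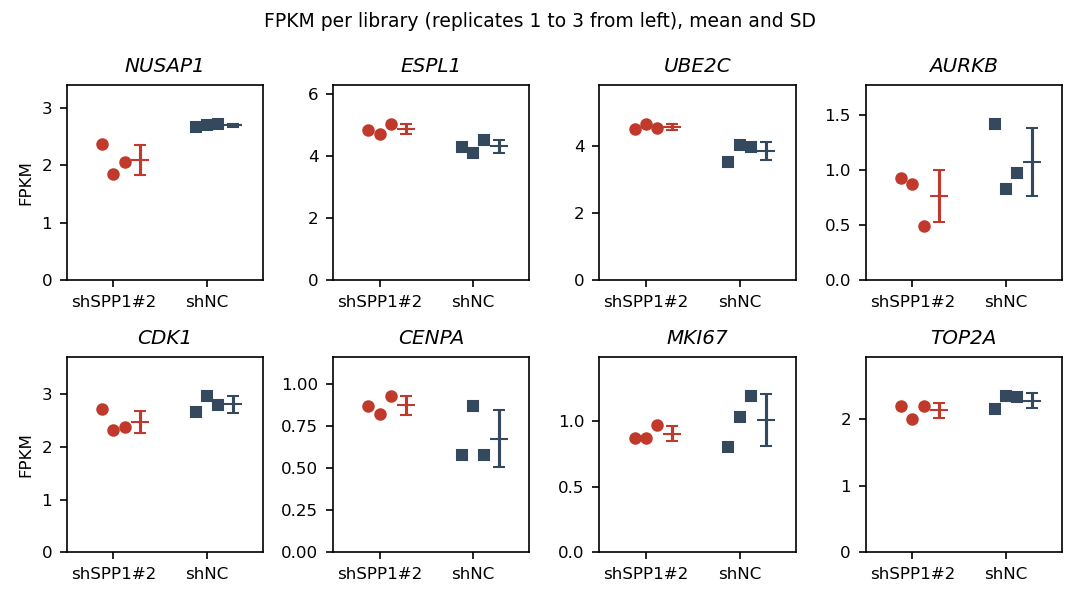
FPKM in each library, shSPP1#2 medium left (circles) and shNC medium right (squares), with mean and SD (n = 3), for the 6 members of smallest p and for MKI67 and TOP2A. The groups lie apart for NUSAP1, ESPL1 and UBE2C and overlap for the other 5 genes.

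Counted over all roles, the groups lay apart in TMM-scaled counts for 4 of the 35 genes, where 11.1% of all genes tested did. Of these, ESPL1 and UBE2C were higher in shSPP1#2 medium (5.63% of all genes tested) and NUSAP1 and CCNA2 lower (5.5%). In FPKM, where 10.5% of all genes tested lay apart, ESPL1, UBE2C and PRC1 were higher (5.5% of all genes tested) and NUSAP1 lower (5.05%). The members' shares are near this background.

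The remaining machinery of mitosis gave no call in any list. Of 33 other kinetochore and checkpoint genes tested, 25 had a log2 fold change below 0, with a median of -0.068 (-0.10 to -0.069 with each library left out in turn, 21 to 24 below 0). SPC25, a partner of NUF2 and NDC80, averaged 2.52 ± 0.263 FPKM in shSPP1#2 medium and 3.39 ± 0.487 FPKM in shNC medium (SD, n = 3 each), with a log2 fold change of -0.43 (edgeR adjusted p = 0.618). TRIP13, which disassembles the checkpoint complex, and CENPT, which anchors the kinetochore, had -0.17 and -0.15. Of 24 other spindle and cytokinesis genes 14 were below 0 (median -0.037), with CIT, a kinase of cytokinesis, at -0.49 (edgeR adjusted p = 0.654). That median was 0.016, with 10 of 24 below 0, without shNC replicate 1, and -0.00087, with 12 of 24 below 0, without shSPP1#2 replicate 2, so the list had no stable direction. Of 19 other mitotic regulators 13 were below 0 (median -0.058, and -0.078 to -0.017 with libraries left out), among them CKS2, a CDK-binding subunit, at -0.22 and the phosphatase inhibitor ENSA at -0.13 (edgeR adjusted p = 0.633 for each).

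Condensin and cohesin genes had 13 of 17 log2 fold changes above 0 and a median of 0.054 (0.038 to 0.084 with libraries left out), with the cohesin loader NIPBL at 0.094. The anaphase-promoting complex had 9 of 15 below 0 (median -0.029, and -0.053 without shNC replicate 1 to -0.016 without shSPP1#2 replicate 3), its RING subunit ANAPC11 at -0.16. Of DREAM, MMB and NF-Y genes 9 of 15 were below 0 (median -0.022), with the CHR-binding LIN54 at 0.14 and MYBL2, an activator of G2/M genes, at -0.29. The sign of that median turned, to 0.0082 without shSPP1#2 replicate 1 and 0.022 without shNC replicate 1. DNA replication genes had 14 of 15 below 0 and a median of -0.11, with RRM2, a subunit of ribonucleotide reductase, at -0.19. Without shSPP1#2 replicate 1 that median was -0.057. Of the brakes 6 of 11 tested were below 0 (median -0.0095), with the retinoblastoma protein gene RB1 at 0.10, and that median too changed sign, running from -0.029 without shNC replicate 3 to 0.023 without shSPP1#2 replicate 3. Across these 8 lists 0 genes passed the edgeR test over all genes. At an unadjusted p below 0.05 there were 5 (SPC25, CIT, ENSA, CKS2 and ANAPC11), all lower in shSPP1#2 medium. Over all genes tested 3.39% were lower at that threshold, and as a share of the genes tested in the 8 lists these 5 lie near it.

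**Figure D5:**
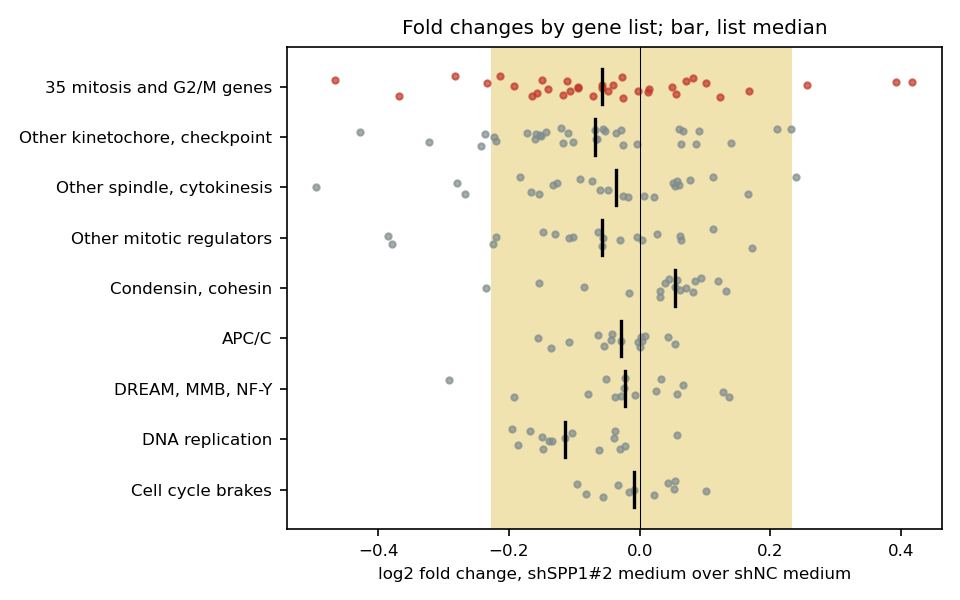
log2 fold changes, shSPP1#2 medium over shNC medium, of the 35 genes (red) and of 8 further cell cycle lists (gray), 1 point per gene tested, with a bar at each list median. The shaded band runs from the 5th to the 95th percentile of all genes tested, -0.23 to 0.23, and describes single genes, not medians. The list medians run from -0.11 to 0.054.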

How the data were processed

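The authors deposited estimated counts and FPKM values per gene for 6 libraries, with Entrez numbers and symbols. Per the submitters' processing notes, which give neither order nor role, the tools were HISAT2 2.0.4, Bowtie2 2.2.5 and RSEM, and the build was GRCh38.p13. Annotation, filters and strand use: not given in the sources used here. Estimated counts as deposited were not scaled (78.9% to 80.4% were not whole, tolerance 0.005), and the deposited FPKM values are scaled by length and library total as the authors defined them; 20 stray text lines were dropped.

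Estimated counts were rounded, filtered with filterByExpr (13555 genes, all 35 members kept), scaled by TMM and tested with edgeR 4.0.16 (R 4.3.3) without a block, Benjamini-Hochberg over all genes, threshold 0.05. DESeq2 1.42.0 and limma 3.58.1 were alternatives. The edgeR step was tested on simulated data. Intervals are 95% and cover the fitted spread. Exon overlap came from GENCODE v29 (GRCh38). Plots used matplotlib 3.10.9.

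The members and lists were chosen with earlier results of these data known. Values per library are given for MKI67, TOP2A, CDK1, CCNB1, the 2 most abundant members per role and the 6 of smallest p; of other lists up to 3 genes of smallest p were named. The printed promoters were limited to those with a CHR before the start after the sequences were seen.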

Additional observations from a re-analysis of the deposited data

How the results depend on the processing

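No member was called under any of the alternatives that gave an adjusted p: RLE, upper-quartile or total-count scaling, no low-count filter, a CPM of at least 1 in 3 libraries (34 members), limma-voom, limma on either FPKM scale, a replicate block, DESeq2 without its filter (chosen after seeing the data), or any library left out. With libraries left out the members' median ran from -0.072 to -0.010 and those below 0 from 18 to 25, and 0 genes of the further lists were called. BIRC5 changed sign with total counts alone, to 0.00296. With libraries left out, 21 of 210 member values changed sign, in 14 genes: AURKA -0.025 to 0.051, BIRC5 -0.15 to 0.14, BUB1B -0.028 to 0.35, CDC20 -0.067 to 0.022, CENPE -0.20 to 0.042, CENPF -0.017 to 0.11, DLGAP5 -0.35 to 0.031, FOXM1 -0.075 to 0.066, HMMR -0.047 to 0.17, KIF11 -0.15 to 0.070, KIF23 -0.22 to 0.024, MKI67 -0.27 to 0.0045, PTTG1 -0.13 to 0.077 and TTK -0.31 to 0.081. Over all genes, where the edgeR fit called 0, no filter gave 18 calls, DESeq2 13 (12 without its filter), limma-voom 1, limma on log2(FPKM + 0.1) 1, the replicate block 59, and left-out libraries 1 to 10; the cause was not tested. Same-numbered libraries deviated together with correlations of 0.073, 0.096 and 0.048, each the best match of both libraries, a hint from the data only; the block changed no call among the 35. Raising the level threshold to 5 FPKM left 3 members. In 250 bases before the start alone, 55.2% of member promoters held a CHR, against 14.6% of all promoters and 10.1% of those of the genes tested. Depth limits what the members could show: standard errors reached 0.37, and the intervals of AURKB and CDC25C extended to -1.11 and 1.20.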
